A study of Caenorhabditis elegans with 12 samples.

Results

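The baseline transcriptome described here is that of wild-type Caenorhabditis elegans larvae of the L3 stage, grown at 15 °C. It rests on the 4 libraries of the N2 strain among the 12 libraries of the series. N2 is the laboratory wild type and carries no mutation or treatment here. The members were taken from the strain and genotype labels, and the 8 libraries of mutant strains were not used. Embryos of adults kept at 15 °C were plated with Escherichia coli as food and collected as L3 larvae. RNA came from whole frozen larvae, so every tissue is mixed in each library, and polyadenylated RNA was sequenced with a strand-specific kit. The labels do not say how the stage was checked, which sex the larvae were, or whether the 4 libraries came from separate cultures. The spread between them may therefore be biological or technical.

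A larva of this species grows through stages that are separated by molts. Before each molt the hypodermis, the outer epithelium, secretes a new cuticle built largely of collagens, and many hypodermal genes go through a cycle of expression in every larval stage. The heterochronic genes order the events of successive stages. At the L3 stage the germ line is still proliferating, while sperm, oocytes and yolk are products of later life. Feeding larvae digest bacteria in the intestine with secreted and lysosomal proteases.

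The deposited values, called normalized counts, were found to be reads divided by the genomic span of the gene, introns included, and scaled to the same total in every library. Whole reads were recovered from them, 35539754, 30672623, 34603786 and 34633773 in replicates 1 to 4. Levels are given as TPM (transcripts per 1000000), that is reads per base of exon, scaled to a total of 1000000 in each library. TPM values are per length, so levels of different genes can be set side by side, though only roughly. The relation of level to gene length differed between libraries, and near-identical genes may share reads. Of 23389 genes with a known exonic length, 12791 (54.7%) reached 1 TPM in all 4 libraries and are called detected. Among the 19503 protein-coding genes 12443 (63.8%) were detected. Another 1870 genes had no read in any library. A count of 0 in a library allows at most 3 reads, which is 0.0844 to 0.0978 CPM (reads per 1000000 reads), for counting error only.

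A few genes made up much of the RNA. The 10 most abundant genes took 7.92, 7.63, 7.21 and 9.2% of the total in replicates 1 to 4, the 100 most abundant took 37.3% ± 0.905 and the 1000 most abundant took 71.4% ± 0.463 (SD, n = 4). In each library 208 to 223 genes held 50% of the total, and 3706 to 4041 genes held 90%. A mean of at least 1000 TPM was found for 155 genes, of at least 100 TPM for 1421 and of at least 10 TPM for 8005. The total was thus carried by a small set of genes in every library, while the detected genes had a median of 15.4 TPM.

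The 25 most abundant genes all encoded proteins of the cytosolic ribosome. The highest was rpl-41.2 (WBGene00023068, chromosome I, 4790292 to 4790649), which encodes the smallest protein of the large subunit, with 18734, 14560.0, 13797 and 18152 TPM in replicates 1 to 4. The position is on WBcel235, as are all others. The gene has a near-identical copy, rpl-41.1, at 698 ± 143 TPM, and the division of reads between them is uncertain. Next came rps-25 (WBGene00004494, chromosome IV, 5947036 to 5947607), a gene of the small subunit, with 8003, 8477, 7925 and 10776 TPM. The gene rpl-39 of the large subunit followed with 7856, 6655, 6849 and 7682 TPM, and Y37E3.8, named rpl-27A in RefSeq, with 6538, 7088, 6177 and 8832 TPM. Replicate 4 was highest for rps-25 and Y37E3.8, and replicate 1 for rpl-41.2 and rpl-39. The other 21 genes had means between 4427 TPM (rps-3) and 7033 TPM (rpl-27).

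**Figure D1:**
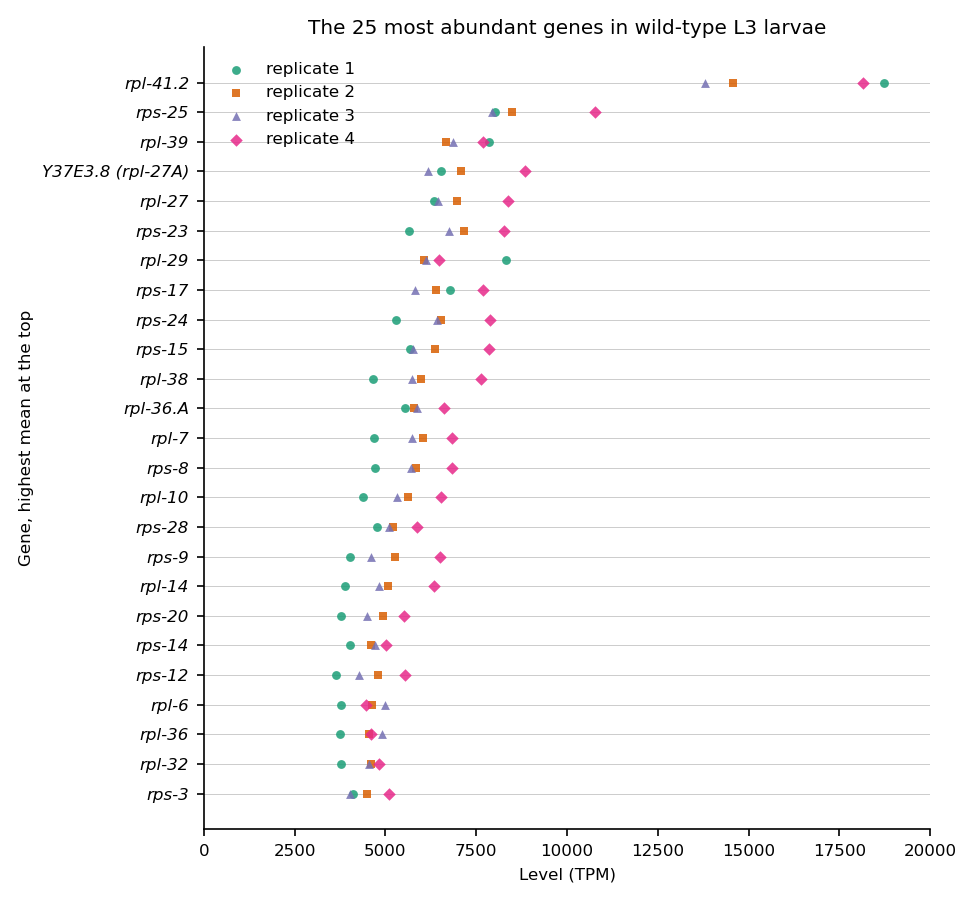
Level in TPM (x axis, linear) of the 25 genes with the highest mean in wild-type L3 larvae, 1 row per gene and 1 symbol per replicate library. All are ribosomal protein genes. The topmost, rpl-41.2, lies between 13797 and 18734 TPM, and in most rows replicate 4 is the rightmost symbol.

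Outside the family of ribosomal proteins, the most abundant transcripts included genes of respiration, ubiquitin, translation and lipid binding. The mitochondrial gene ctc-3, a subunit of cytochrome c oxidase, ranked 27 with 7647, 2653, 3483 and 3364 TPM. The gene ubq-2, which encodes ubiquitin fused to a ribosomal protein, ranked 29 with 3632, 4308, 4411 and 4227 TPM. The elongation factor gene eef-1A.1 ranked 31 with 4525, 4671, 4644 and 2459 TPM, and its near-identical copy eef-1A.2 had 1024 ± 144 TPM. In replicate 4 eef-1A.1 lay far under the other 3 libraries. The translationally controlled protein gene tct-1 had 3176 ± 378 TPM, and far-1, for a secreted fatty acid and retinol binding protein, 3122 ± 268 TPM (SD, n = 4). Among genes known only by a sequence name, C17F4.7 was highest with 4294, 3459, 3066 and 3175 TPM.

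By gene class, 99.1% ± 0.128 of the total came from protein-coding genes. Genes labelled pseudogenes held 0.462% ± 0.0297, led by F07H5.5 at 1022 ± 103.96 TPM. Genes labelled ncRNA held 0.232% ± 0.0131, led by tts-1, a long noncoding RNA, with 250.4, 288, 270.2 and 436 TPM. The 18 genes labelled rRNA held 0.252, 0.0876, 0.0835 and 0.277% in replicates 1 to 4, so these genes were higher in replicates 1 and 4 than in replicates 2 and 3. The 154 lincRNA genes held 0.0255% ± 0.00321, with 33 detected. None of the 31 miRNA, 43 tRNA and 71 snRNA genes was detected. Like rRNA, these are RNA kinds that a poly(A) library is not made to capture.

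By chromosome, chromosome I held 22.4% ± 0.563 of the total, IV 17.9% ± 0.242, III 17.6% ± 0.65, V 16.03% ± 0.308, II 14.2% ± 0.229 and X 9.74% ± 0.269 (SD, n = 4). Chromosome V, which has the most genes in the table (5923), had the lowest share of genes detected, 43.998%, and chromosome III the highest among the nuclear chromosomes, 68.6%. Detected genes had a median of 17.96 TPM on chromosome I and 12.4 TPM on X. The mitochondrial genome held 3.43, 1.37, 1.76 and 1.89% in replicates 1 to 4.

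The total was divided over 34 gene families defined by gene names. Cytosolic ribosomal protein genes held 28.1, 31, 30.8 and 32% in replicates 1 to 4, a mean of 30.48% ± 1.67 (SD, n = 4), with 83 of 84 genes detected. The exception, rpl-42, had at most 0.312 TPM. Because these genes are short, the family took only 15.8% of reads. Cuticle collagens held 3.99% ± 0.378, with 106 of 176 genes detected. Genes of fatty acid metabolism and lipid binding held 2.28% ± 0.119, the 14 genes of the mitochondrial genome 2.11% ± 0.904, and the nuclear genes of oxidative phosphorylation 1.9% ± 0.0232. Genes outside these families held 23.9% ± 1.15 where they had a name and 20.9% ± 0.807 where they had only a sequence name.

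Smaller families were led by abundant single genes. Translation factors held 1.59% ± 0.181 and chaperones 1.12% ± 0.0905. The chaperone gene highest in TPM was crt-1, for calreticulin, at 1859 ± 143 TPM. Thick and thin filament proteins of muscle held 1.19% ± 0.151. Aspartyl and cysteine cathepsins, lysosomal and digestive proteases, held 1.03% ± 0.264, and neuropeptide and insulin-like peptide genes 0.989% ± 0.153, led by nlp-24 at 1491 ± 314 TPM. By its name nlp-29, an antimicrobial peptide gene of the hypodermis, is counted in the latter family and is among its highest genes. Subunits of the vacuolar ATPase, the proton pump of acidic compartments, held 0.822% ± 0.0374, with vha-2 highest at 998 ± 92.3 TPM. Proteasome genes held 0.533% ± 0.0192, mitochondrial ribosomal proteins 0.551% ± 0.0415 and glycolytic genes 0.383% ± 0.0536, with gpd-3, a glyceraldehyde-3-phosphate dehydrogenase gene, at 633 ± 105 TPM. The 1472 chemoreceptor genes, most of which act in few sensory neurons, held 0.0618% ± 0.00858, and 42 of them were detected. The highest of these was srr-4 at 219 ± 44.7 TPM. None of the 33 major sperm protein genes and none of the 6 vitellogenin genes, which encode yolk, was detected.

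**Figure D2:**
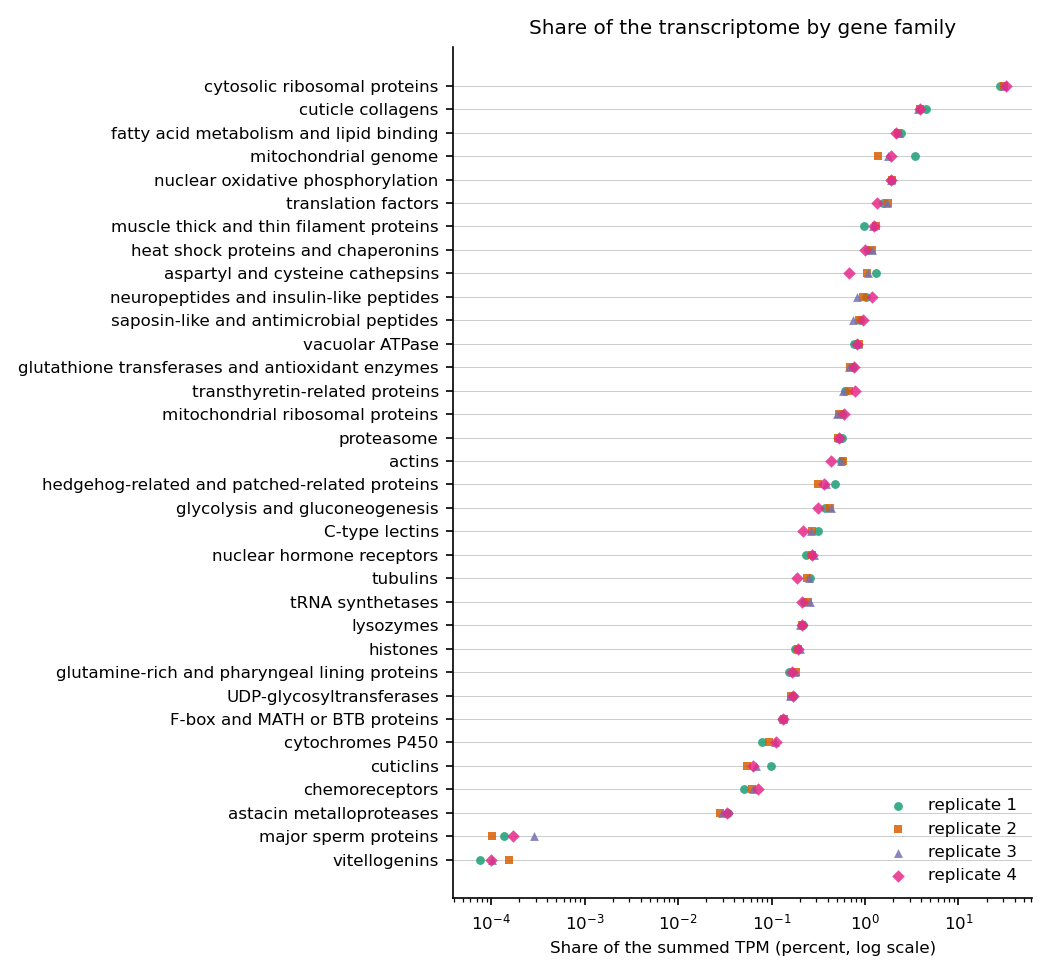
Share of the summed TPM (x axis, percent, log scale) held by each of 34 gene families in wild-type L3 larvae, 1 symbol per replicate library. Ribosomal proteins lie between 28.1 and 32.0%. Vitellogenins and major sperm proteins lie far to the left of all others, at means of 0.000109 and 0.000175%. The mitochondrial genome, with replicate 1 at 3.43% and replicate 2 at 1.37%, is among the families with a wide spread.

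Marker genes of the main tissues were then examined. In whole larvae, fewer cells of a type and less RNA per cell cannot be told apart. All 41 body-wall muscle genes were detected, against 54.7% of all genes, and 16 of them reached a mean of 100 TPM. Troponin C (pat-10, WBGene00003934, chromosome I, 5018770 to 5020166) had 1997, 2453, 2134 and 2899.8 TPM in replicates 1 to 4. The regulatory myosin light chain gene mlc-2 followed with 1195, 2038, 1985 and 2177 TPM. The muscle actin gene act-4, with near-identical copies in act-1 to act-3, had 1099.5, 1354, 1317 and 821 TPM. A copy of mlc-2, mlc-1, had 807, 1182, 1121 and 1217 TPM, and reads may be divided between the copies. Replicate 1 was the lowest of the 4 libraries for pat-10, mlc-2 and mlc-1, and replicate 4 for act-4. Summed over the list, body-wall muscle genes had 10796, 14402, 13662 and 12912 TPM. The median deviation of a library from the mean of the 4 libraries, over the 36 genes at 10 TPM or more, was -0.23, 0.19, 0.19 and -0.14 on the log2 scale. After a smooth correction for gene length in each library it was -0.16, 0.10, -0.02 and 0.12, so the sign turned in replicates 3 and 4.

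The series was designed around a formin, an actin filament assembly protein, and the transcription factor SRF in striated muscle. The SRF gene unc-120 had 23.6, 36.8, 31.9 and 38.5 TPM, and hlh-1, the worm MyoD, 9.06, 11.8, 8.63 and 11.1 TPM. The formin gene fhod-1 had 12, 11.7, 12 and 7.65 TPM, and cyk-1, another formin gene, 4.38, 5.6, 6.35 and 3.38 TPM. All 4 lay under pat-10, mlc-2, act-4 and mlc-1 in every library. The main body-wall myosin heavy chain genes had 492, 680.0, 574 and 318 TPM for unc-54 and 84.7, 111.8, 114 and 55.2 TPM for myo-3, with replicate 4 lowest and replicates 2 and 3 highest in both.

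Pharyngeal muscle, which pumps food, was represented by 7 of 7 genes. The pharyngeal troponin I gene tni-4 had 98.1, 202, 139 and 258 TPM, the troponin C gene tnc-2 112.5, 127, 91.4 and 161 TPM, the troponin T gene tnt-4 31.6, 81.8, 64.2 and 82.4 TPM and the myosin heavy chain gene myo-2 27.4, 57.8, 43.6 and 30.9 TPM. Replicate 1 was lowest for tni-4, tnt-4 and myo-2, and replicate 3 for tnc-2. The sum of the list was 303, 543, 403 and 577 TPM. Genes of the pharyngeal glands and lining were detected in 12 of 13 cases and summed to 355, 432, 361 and 455 TPM, with abu-14 highest at 95, 129, 98.1 and 124 TPM. The exception was hlh-6, a gland transcription factor gene, with 0.773, 1.17, 1.03 and 1.000 TPM.

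All 30 genes of the hypodermis and seam were detected. The cuticle collagen genes dpy-13 (WBGene00001074, chromosome IV, 4235614 to 4236710), sqt-3, rol-6 and sqt-1 led the list. The values were 1511, 602, 997 and 602 TPM for dpy-13, 1209, 465, 911 and 426 TPM for sqt-3, 1000.4, 431, 732 and 832 TPM for rol-6 and 990.3, 337, 773 and 414 TPM for sqt-1. Replicate 1 was highest for all 4 of these genes, which are also counted with the named collagens. The summed list was 7210.3, 4298, 6633 and 4524 TPM, so that the sums of replicates 1 and 3 lay above those of replicates 2 and 4. Among single genes replicate 3 was most often the highest library. Of the 26 at 10 TPM or more, 15 were highest in replicate 3 and 6 in replicate 1. The shares of all 8005 genes were 32.9% and 23.2%. Of the 26, 14 were lowest in replicate 4 and 7 in replicate 1, against 31.6% and 37.99% of all genes. The median deviation of the 26 genes was -0.03, -0.05, 0.33 and -0.40 on the log2 scale, and 0.05, -0.13, 0.24 and -0.12 after the correction for length.

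All 30 intestinal genes were detected too. The aspartyl protease gene asp-1 (WBGene00000214, chromosome V, 19049461 to 19050825) had 3761, 3054, 2660.3 and 1661 TPM, the saposin-like gene spp-5 1754, 1313, 1204 and 1345 TPM, the intestinal actin gene act-5 1397, 1187, 1113 and 928 TPM and a further aspartyl protease gene, asp-6, 1509, 1212, 1166 and 644 TPM. Replicate 1 was highest in each, and replicate 4 was lowest except for spp-5. The sum was 14130.0, 11991, 11423 and 8959 TPM.

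Genes shared by all classes of neurons were detected in 22 of 22 cases and had the smallest relative range of sums among the tissue lists, 998, 1067, 1098 and 1022 TPM. Synaptobrevin (snb-1), a protein of synaptic vesicles, had 177, 177, 177 and 188 TPM. The neuropeptide processing genes egl-21 and egl-3 had 148 ± 15.3 TPM and 117 ± 8.26 TPM, and ric-4, the worm SNAP-25, 122.3 ± 7.7 TPM (SD, n = 4). Genes of single transmitter classes were lower and were detected in 11 of 14 cases. The highest was unc-25, the GABA-synthesizing glutamate decarboxylase, with 37.2, 68.8, 58.5 and 76.1 TPM, then tdc-1, a tyrosine decarboxylase, with 14.2, 14.4, 14.8 and 11.1 TPM, then eat-4, the vesicular glutamate transporter, with 9.53, 10.8, 9.77 and 11.4 TPM, then unc-17, the vesicular acetylcholine transporter, with 8.66, 9.61, 9.71 and 9.47 TPM. The levels of eat-4 and unc-17 overlapped between libraries. Touch and sensory neuron genes were detected in 13 of 18 cases. Of these mec-17, mec-7 and mec-12, tubulin and tubulin-modifying genes of the touch receptor neurons, held most of the sum. The values were 226, 182, 163 and 237 TPM for mec-17, 151, 129, 139.9 and 112.5 TPM for mec-7 and 159, 118, 133 and 90.3 TPM for mec-12. The fourth gene, mec-18, had 13.5, 11.4, 12.7 and 10 TPM.

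Markers of glia, the excretory system and coelomocytes were detected in 14 of 15 cases, with exc-9 of the excretory canal highest at 30, 45, 38 and 51.8 TPM, followed by the aquaporin gene aqp-8 at 13.3, 54, 30.1 and 43.3 TPM. Replicate 1 had the lowest value of aqp-8 and of the summed list, 179, 251, 248 and 240.2 TPM. Somatic gonad and vulva genes were detected in 17 of 21 cases at a median of 5.55 TPM. They were led by the transcription factor gene fos-1 at 14.9 ± 4.05 TPM, lin-39, a Hox gene, at 14.2 ± 4.88 TPM, the metalloprotease gene gon-1 at 14 ± 3.53 TPM and the FGF receptor gene egl-15 at 12.3 ± 2.71 TPM (SD, n = 4).

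Germline genes were detected but low. Of the stem cell and early list, 15 of 16 were detected, with a median of 7.31 TPM, and of the P granule and small RNA list 14 of 15, with a median of 8.01 TPM. P granules are RNA and protein assemblies of germ cells. The RNA-binding protein gene car-1 had 83.3, 87.2, 93.4 and 49 TPM and the helicase gene cgh-1 35.5, 35.4, 40.3 and 19.8 TPM. The Vasa-like helicase gene glh-1 (WBGene00001598, chromosome I, 6854688 to 6857529) had 28.4, 45.6, 49.9 and 32.8 TPM, the Argonaute gene csr-1 28.6, 28.9, 33.9 and 16.4 TPM and the P granule gene pgl-1 16.9, 30.2, 28.8 and 20.4 TPM. The undetected members were nos-2 and meg-1. Replicate 3 had the highest sums, 220.1, 262, 289 and 158 TPM for the stem cell list and 141, 200.3, 219.9 and 132 TPM for the P granule list. After the correction for gene length the median deviation was highest in replicate 2, at 0.10 against 0.08 in replicate 3 for the stem cell list and 0.13 against 0.11 for the P granule list. Before it, replicate 3 had 0.30 and 0.37.

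Meiotic genes were lower still. The list had 19 of 22 genes detected, with a median of 2.56 TPM, led by him-17 at 12.5 ± 2.13 TPM, him-8, an X chromosome pairing protein, at 7.84 ± 0.556 TPM, htp-1 at 6.31 ± 1.12 TPM and him-3 at 5.91 ± 0.956 TPM, the last 2 for proteins of the meiotic chromosome axis. Oocyte and eggshell genes were detected in 6 of 19 cases, with the katanin gene mei-1 highest at 9.25 ± 1.31 TPM and cpg-2, an eggshell proteoglycan, next at 2.83 ± 0.687 TPM (SD, n = 4). Of 24 sperm genes 3 were detected. These were fog-3 with 3.00, 5.36, 6.62 and 4.89 TPM and fog-1 with 2.05, 3.9, 4.62 and 1.85 TPM, which act in the choice of sperm fate, and spe-4 with 1.26, 1.41, 1.23 and 1.22 TPM. Another 20 sperm genes stayed under 1 TPM in every library, 5 of them with no read.

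Genes of other stages were largely missing, which is how the L3 label was checked. None of the 9 genes for yolk and the adult cuticle was detected. The adult collagen gene col-19 had 0.347, 0, 0 and 0.0302 TPM, and vit-1, the highest of the yolk genes, 0.485, 0.864, 0.535 and 0.726 TPM. The adult cuticle collagen gene bli-2 had 2.22, 0.318, 1.26 and 0.198 TPM, above 1 TPM in replicates 1 and 3 alone. Of 9 early embryonic genes none was detected, and med-2 was highest with 0.671, 1.61, 1.83 and 2.09 TPM. Of 6 male genes none was detected, with mab-3 highest at 0.909, 1.58, 1.42 and 0.993 TPM. In the dauer list lea-1 had 31.9, 38.1, 41.6 and 25.5 TPM and hsp-12.6 4.16, 6.54, 10.2 and 13.9 TPM, whereas the dauer cuticle genes cut-1 and col-40 were under 0.05 TPM in every library. The lists hold no gene that marks L3 alone, so adjacent larval stages were not told apart by them.

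**Figure D3:**
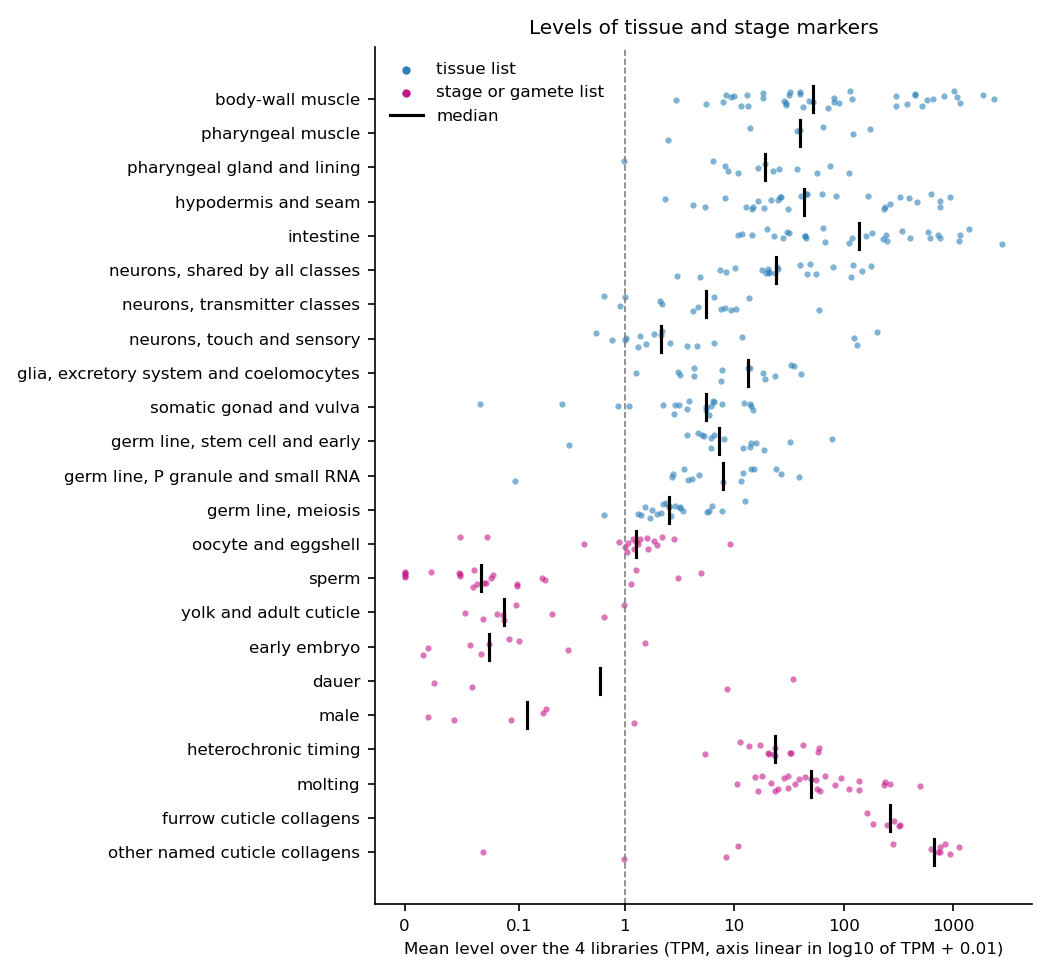
Mean level over the 4 wild-type libraries (x axis, TPM on a log scale with 0.01 added) of each gene in 23 lists of tissue and stage markers, 1 point per gene, with a black line at the median of the list on this scale and a dashed line at 1 TPM. Muscle, hypodermal and intestinal genes lie right of the dashed line, germline genes lie near medians of 2.56 to 8.01 TPM, and most sperm, yolk, embryo and male genes lie left of it.

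Differences of at least 2-fold were counted between the highest and the lowest library of each gene, on log2(TPM + 1), for the 8005 genes with a mean of at least 10 TPM. There were 833 such genes (10.4%), of which 36 differed at least 4-fold. The median ratio of the highest to the lowest library was 1.45, the median SD of log2(TPM + 1) 0.23 and the median coefficient of variation 16.4%. The counting of reads alone gave a median error of 2.57%. Only 58 of the 8005 genes had under 100 reads in a library. The count of 833 was 347 (4.31%) without replicate 1 and 471 (5.88%) without replicate 4. Of the 833 genes 41.8, 7.44, 25.6 and 25.2% were highest in replicates 1 to 4, and 28.3, 26.1, 13.8 and 31.8% were lowest there. Counts of members by library are to be read against these shares.

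Levels also moved with gene length. The slope of a library's deviation on log2 exonic length was -0.05, 0.07, 0.15 and -0.17 in replicates 1 to 4. Genes in the longest of 3 equal groups, with a median of 2573 bases, had median deviations of -0.09, 0.12, 0.20 and -0.22 on the log2 scale. Replicate 3 thus read highest and replicate 4 lowest for long genes. After a smooth correction for length in each library 624 genes varied at least 2-fold, of which 526 were among the 833. The part that RNA quality or library preparation had in these slopes was not tested.

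Regulators of developmental timing were all detected, 14 of 14. The Period-like gene lin-42, which cycles with the molts, had 79.9, 46.7, 82.4 and 27.6 TPM. The early regulators were present, the transcription factor gene lin-14 with 18.7, 29.2, 28.9 and 16.9 TPM and the RNA-binding protein gene lin-28 with 25.8, 33.2, 29.4 and 41.9 TPM. The later-acting lin-41, an RNA-binding protein gene, had 37.9, 53, 49.1 and 29 TPM, and lin-29, the zinc finger gene of the larval-to-adult switch, 16.9, 9.59, 21.5 and 6.61 TPM. Replicate 4 was the lowest library for lin-42, lin-14, lin-41 and lin-29 and the highest for lin-28. The transcription factor gene hbl-1 had 9.04, 15.4, 14.6 and 6.72 TPM, and mab-10, a cofactor of lin-29, 5.94, 4.97, 8.36 and 2.51 TPM.

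The remaining timing genes had means between 17.4 TPM (alg-2) and 57.9 TPM (dre-1). The nuclear receptor gene daf-12 had 21.5, 42, 44.9 and 24.5 TPM. The microRNA Argonaute genes alg-1 and alg-2 had 26.5, 25, 31.1 and 12.7 TPM and 17.1, 20.6, 18.4 and 13.4 TPM. The F-box gene dre-1 had 53, 57.9, 77.9 and 42.9 TPM, lin-66 19.5, 28.9, 31.4 and 15.7 TPM, lin-46 25, 18.7, 20.6 and 18.7 TPM and nhl-2 17.6, 22.6, 27 and 15.2 TPM. Of the 13 timing genes at 10 TPM or more, 5 differed at least 2-fold between their highest and lowest library, lin-42, daf-12, alg-1, lin-29 and hbl-1. Their share was 38.5%, and 15.4% without replicate 4, 15.4% after the correction for length and 7.69% with a pseudocount of 10. Replicate 4 was lowest in 10 of the 13 genes and replicate 3 highest in 7, against 31.6% and 32.9% of all 8005 genes. The median deviation of the 13 genes in replicates 1 to 4 was -0.12, 0.16, 0.40 and -0.41 on the log2 scale, and -0.04, -0.01, 0.08 and -0.08 after the correction for length.

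Molting genes and cuticle collagens varied far more often than 10.4%. Of 27 molting genes, all at 10 TPM or more, 14 varied at least 2-fold, 10 of them highest in replicate 3. The share of 51.9% was 29.6% without replicate 3 and also without replicate 4. The list was led by mlt-8 with 602, 342, 534 and 500.5 TPM, the apical matrix genes noah-2 with 319.7, 213, 370.4 and 148 TPM and noah-1 with 238, 205, 375 and 117 TPM, and the lipocalin gene lpr-3 with 241, 217, 369 and 131 TPM. Replicate 3 was highest for noah-2, noah-1 and lpr-3, and replicate 4 was lowest. The sums of the list were 2739, 1998, 3219 and 1781 TPM. The median deviation of the 27 genes in replicates 1 to 4 was 0.20, -0.13, 0.43 and -0.44 on the log2 scale, and 0.29, -0.26, 0.20 and -0.17 after the correction for length.

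The furrow collagens, which shape the circumferential furrows of the cuticle, were highest in replicate 3 in 6 of 6 genes, against 32.9% of all 8005 genes. The values were 328, 268, 379 and 320.5 TPM for dpy-7, 322, 278, 398 and 289.9 TPM for dpy-9, 297, 227, 373 and 243 TPM for dpy-2 and 219.8, 209, 349 and 215 TPM for dpy-10. The member that varied at least 2-fold, dpy-8, had 199, 119.4, 246 and 90.6 TPM. Their sums were 1597, 1236, 1983 and 1295 TPM. The other named cuticle collagens, many of which set body shape, were highest in replicate 1 in 8 of 9 genes, against 23.2% of all 8005 genes. Those 8 varied at least 2-fold. The highest of them, dpy-5 (WBGene00001067, chromosome I, 5432158 to 5433054), had 1644, 767, 1249 and 893 TPM, and dpy-4 had 1397, 529, 919 and 529 TPM. The exception, dpy-17, had 13, 13.1, 8.39 and 9.21 TPM. Their sums were 9391, 3690.0, 6664 and 4515 TPM, so replicate 1 held 2.54 times the level of replicate 2. Without replicate 1 the share that varied was 33.3%, and without replicate 2 55.6%, in place of 88.9%. Of all genes 4.31 and 8.59% varied in these settings. After the correction for length the median deviation in replicates 1 to 4 was 0.14, -0.32, 0.42 and -0.21 for the furrow collagens and 0.86, -0.61, 0.25 and -0.40 for the others, so the library with the highest level was unchanged in both lists.

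Of the whole family of cuticle collagens, 44 of 88 genes at 10 TPM or more varied at least 2-fold. Of these, 30 were highest in replicate 1, 7 in replicate 4, 6 in replicate 2 and 1 in replicate 3, so 30 of 44 stood in replicate 1, where 41.8% of all varying genes were highest. Without replicate 1 the share of collagens that varied was 16.5%, against 4.31% of all genes, and without replicate 2 it was 33.3%. The most abundant collagen, col-117 (WBGene00000691, chromosome IV, 8822962 to 8824195), had 2707, 3487, 2534 and 3233 TPM and was highest in replicate 2. The gene col-3, close to it on the chromosome, had nearly the same values, 2672, 3446, 2487 and 3192 TPM. Whether reads are divided between collagen genes was not tested. Replicate 2 also had the largest distance above all other libraries for col-39 with 199, 425, 258 and 273 TPM, col-92 with 405, 640.0, 422 and 427 TPM and col-94 with 441, 725, 474 and 489.7 TPM. The family as a whole held 4.53, 3.91, 3.65 and 3.87% in replicates 1 to 4, so its total moved less than the members did.

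Other families also varied more often than 10.4%, and their members did not all lean alike. In the mitochondrial genome 9 of 14 genes varied at least 2-fold, all 9 highest in replicate 1, and without that library 7.14% varied. Beside ctc-3, ctc-1 had 6333, 2855, 3623 and 3351 TPM and ctb-1, the cytochrome b gene, 5609, 2445, 3113 and 3151 TPM. Nuclear genes of oxidative phosphorylation varied in 0 of 61 cases, and cyc-2.1, cytochrome c, had 1498, 1714, 1648 and 1974 TPM. Among cathepsins 9 of 21 (42.9%) varied, 8 highest in replicate 1 and 8 lowest in replicate 4. Their share was 14.3% without replicate 1 and 9.52% without replicate 4. C-type lectins varied in 11 of 37 cases (29.7%), 10 highest in replicate 1 and 10 lowest in replicate 4, and in 10.8% and 10.5% without these libraries. Their most abundant gene, clec-63, had 599.7, 682, 602 and 458 TPM.

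Among hedgehog-related and patched-related genes, many of them hypodermal and cycling with the molts, 20 of 43 (46.5%) varied, 15 highest in replicate 1, and 19.05% without that library. Their most abundant gene, grd-5, had 810.0, 299, 298 and 497 TPM. Saposin-like and antimicrobial peptide genes varied in 19 of 47 cases (40.4%), 14 of them highest in replicate 4. Their share was 21.3, 39.1, 23.4 and 20% when replicates 1 to 4 were left out in turn, and spp-14, their most abundant gene, had 1645, 1915, 1578 and 1623 TPM. The 4 intestinal genes that varied, of 30, made up 13.3%, near the 10.4% of all genes, and none varied without replicate 1 or without replicate 4.

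The lists of muscle genes differed in how often they varied. Of all genes 10.4% varied, and 4.31, 8.59, 7.62 and 5.88% when replicates 1 to 4 were left out in turn. The share of all genes was 7.83% after the correction for length and 4.35% with a pseudocount of 10. Thick and thin filament genes varied in 9 of 26 cases (34.6%), 5 lowest in replicate 1 and 4 lowest in replicate 4. Among those 5 were tni-4, tnt-4 and myo-2, which are counted again in the pharyngeal muscle list. Their share was 15.4% without replicate 1, 19.2% without replicate 2 and 7.69% after the correction for length, which also turned their median deviation in replicate 4 to 0.13, against -0.10 before it. In the body-wall muscle list 5 of 36 varied, all 5 lowest in replicate 4, a share of 13.9%, near the 10.4% of all genes. It was 5.71% without replicate 4 and 8.57% without replicate 3, also near the shares of all genes. None varied after the correction. Pharyngeal muscle genes varied in 5 of 6 cases, all 5 lowest in replicate 1, in no case without that library, in 33.3% without replicate 2 and in 33.3% after the correction. With a pseudocount of 10 the shares were 11.5% for filament genes, 33.3% for pharyngeal muscle, 16.2% for C-type lectins and 25.5% for saposin-like and antimicrobial genes.

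Housekeeping families varied seldom. None of 83 ribosomal protein genes, 71 mitochondrial ribosomal protein genes, 33 tRNA synthetase genes, 19 vacuolar ATPase genes, 19 glycolytic genes and 13 tubulin genes differed 2-fold between libraries, nor did any of the 18 shared neuronal genes at 10 TPM or more. After the correction for length 6.02% of the cytosolic ribosomal protein genes varied, against 7.83% of all genes, and under quantile normalization 1.2% did. The other groups named here had no varying gene in either setting. The 10 genes with the smallest SD among those at 100 TPM or more were rpt-4, cyc-1, mdh-1, K09E2.3, nspc-14, fat-6, stl-1, rpn-9, F25B5.3 and T20D3.3. The proteasome ATPase gene rpt-4 had 167, 165, 169 and 168 TPM, the cytochrome c1 gene cyc-1 328, 338, 335 and 337 TPM, the malate dehydrogenase gene mdh-1 362, 368, 368 and 357 TPM and the fatty acid desaturase gene fat-6 611, 611, 595 and 627 TPM. These values lay within a few percent of one another in all 4 libraries.

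The most variable gene was rrn-2.1 (WBGene00004567, chromosome I, 15064301 to 15064453), labelled rRNA, with 1349, 220.5, 100.1 and 449 TPM and an SD of log2(TPM + 1) of 1.59. A poly(A) library is not made to capture rRNA, and the part of poly(A) selection in this spread was not tested. After rrn-2.1 came Y39B6A.1 (WBGene00012664, chromosome V, 19201013 to 19203607) with 132, 70.6, 103 and 15.9 TPM and the aspartyl protease gene asp-12 (WBGene00017678, chromosome V, 8269254 to 8272058) with 175, 78.2, 129.7 and 21 TPM. Both were lowest in replicate 4 and highest in replicate 1, 8.3-fold and 8.32-fold higher. The gene dpy-6 (WBGene00001068, chromosome X, 8450381 to 8455640), for a mucin-like protein of the cuticle, had 7.88, 53.7, 59 and 21.9 TPM, with replicate 1 the lowest.

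The next genes leaned to either side of replicate 1. Lowest in it were nspb-6 with 14.1, 43.9, 23.2 and 87.9 TPM, ZC116.1 with 6.65, 34.1, 24.1 and 40.5 TPM and the glutathione peroxidase gene gpx-3 with 2.73, 16.4, 10.1 and 18.2 TPM. In replicate 1 gpx-3 rested on 74 reads. Highest in it were irg-7, a gene of the response to infection, with 399, 286, 310.1 and 83.9 TPM, C04F1.1 with 36.4, 6.32, 11.8 and 11.7 TPM and oac-29 with 27, 5.86, 11.1 and 5.64 TPM. The other 10 genes of the 20 most variable were wrt-6, ZK84.1, EGAP4.1, scl-3, K01D12.9, WBGene00004677, K02E7.6, nspb-11, T01B7.13 and ZC434.10. Their SD was between 0.93 and 0.97. Of the 100 most variable genes 62 were highest in replicate 1, 23 in replicate 4, 11 in replicate 3 and 4 in replicate 2. Collagens made up 10 of these 100, against 1.1% of the genes examined.

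**Figure D4:**
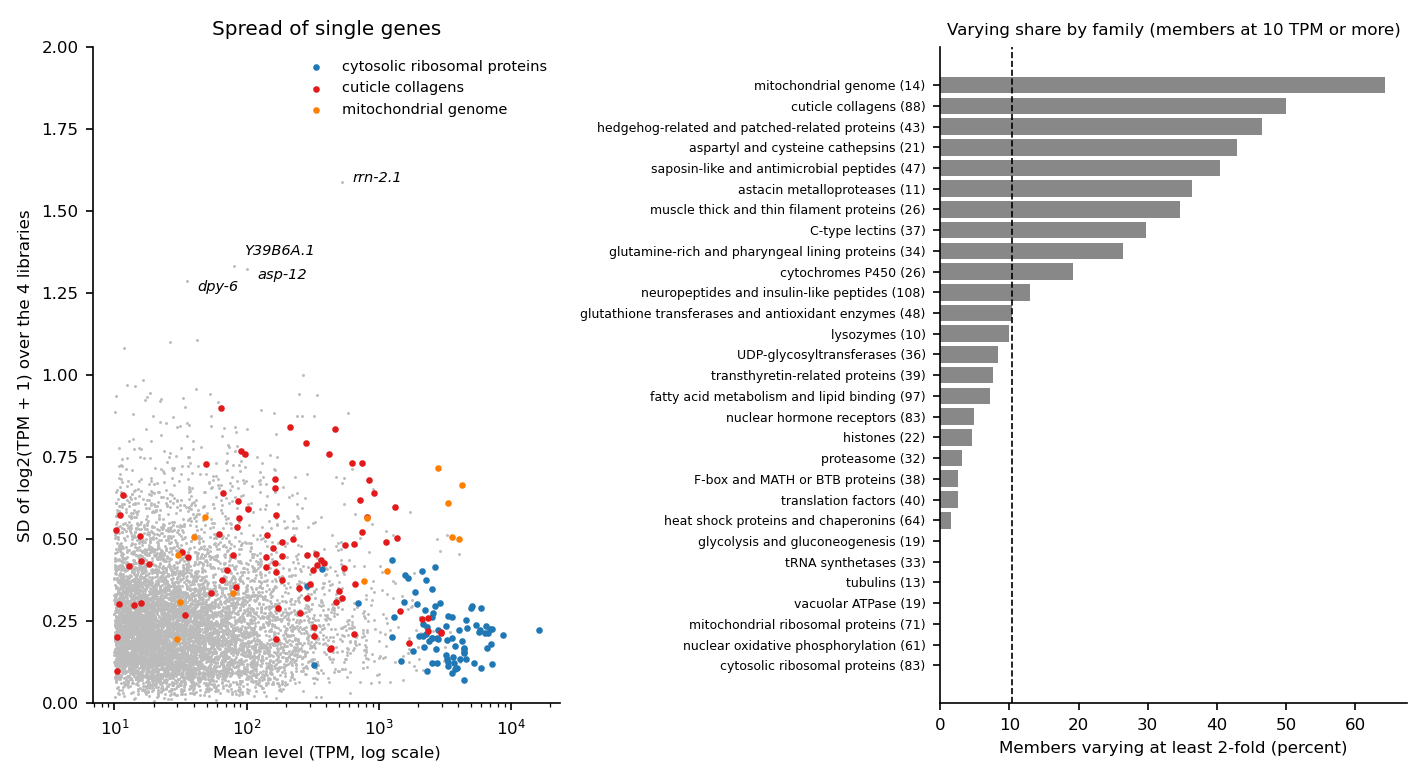
Left, SD of log2(TPM + 1) over the 4 wild-type libraries (y axis) against mean level (x axis, TPM, log scale) for 8005 genes, with 3 families coloured and the 4 most variable genes named. Right, percent of members that differ at least 2-fold between their highest and lowest library, for families with at least 10 members at 10 TPM or more (number in brackets), with a dashed line at the 10.4% of all genes. The longest bars are those of the mitochondrial genome, 9 of 14, and of collagens, 44 of 88, and ribosomal protein genes have 0 varying members.

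The 4 libraries were not equally far from each other. Replicates 2 and 3 were closest, with Pearson's r = 0.987 of log2(TPM + 1) across the 8005 genes, which are not independent, and 52 genes at least 2-fold apart. Replicates 1 and 4 were farthest, with r = 0.956 and 364 genes. Replicate 1 lay at least 2-fold above all other libraries for 36 genes and at least 2-fold below them for 34. Replicate 4 did so for 4 and 25 genes, replicate 2 for 0 and 1 (ZC434.3, with 113, 27.7, 60.9 and 58.2 TPM), and replicate 3 for 0 and 1 (rrn-2.1). Replicate 1 stood highest above the others for rrn-2.1, C04F1.1 and C04G6.2, the last with 46.7, 9.42, 16.3 and 16.3 TPM. It stood lowest below them for ZC116.1, gpx-3 and K02E7.6. Replicate 4 stood highest for WBGene00004677, rrn-3.1 and rrn-1.1, the first labelled a pseudogene and the others rRNA. The values were 423, 303, 398 and 1226 TPM for rrn-3.1 and 236, 149, 142 and 529 TPM for rrn-1.1, and the fourth gene above the others, rrn-1.2, is a near-identical copy of rrn-1.1. Replicate 4 stood lowest for Y39B6A.1, asp-12 and irg-7.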

How the data were processed

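Polyadenylated RNA of whole L3 larvae was sequenced in stranded libraries, per the labels. Bowtie2 2.2.5 and Partek are named in the submitters' processing notes, with the build WBcel235; the counting settings are not given in the sources used here. The values the authors deposited are in a TPM-like unit, named normalized counts in the deposited table. Value times genomic span (end minus start) was a whole multiple of 1 step per library for 98.99 to 99.12% of values under 1000 reads (tolerance 0.05 reads), and for 14.1 to 14.7% with exonic lengths. The authors had thus divided reads by span, introns included, and scaled every library to 638200. Whether intronic reads were counted is not given in the sources used here. Fractional reads occurred in 204 genes, 203 of which overlap a gene on the same strand.

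The reads were divided by exonic length (Ensembl release 115; 126 genes, 0.0656 to 0.0798% of reads, had none) and scaled to TPM, since the unit differed from the one planned for. The table's end positions lay 1 base past the annotated end for 13004 genes, and at it for 284, and are printed 1 lower. Starts matched for 13062 of 23389 genes, so many genes had other bounds in the table than in the release. For some genes the exonic length exceeded the table's span, as for sqt-3 (1422 against 1321 bases) and hsp-12.6 (769 against 500 bases). The effect of this on their TPM was not tested. Genes keep the table's names, and RefSeq gave others. Of 23515 genes 25.8% overlap another, and copies such as actins, histones, nspb genes and rRNA genes may share reads. No test between groups was run, since there is 1 group; Dixon's ratio was used for single libraries in the closing section. Errors are SD over 4 libraries. The pseudocount was 1. Alternatives changed the minimum level, pseudocount, scaling, length correction and libraries, and, chosen after seeing the data, used the deposited values. The step search and the spread were tested on simulated data. Python 3.11.15, pandas 2.3.3, NumPy 2.4.6, statsmodels 0.14.6 and matplotlib 3.10.9 were used.

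The families and lists, drawn from general knowledge, were chosen with earlier results of these data known. The P proteins of the ribosome were added to their family after the data were seen. Genes named were the 25 most abundant, the highest of each family, up to 4 highest of each list with low lists' members at or above 1 TPM, all timing genes, the 20 most variable at 10 TPM or more, the 10 least variable at 100 TPM or more, and per library the 3 farthest above and the 3 farthest below the others. Other genes were chosen after their values were seen: rpl-41.1, eef-1A.2, rpl-42, tct-1, ctc-1, ctb-1, unc-120, hlh-1, fhod-1, cyk-1, unc-54, myo-3, rrn-1.2, dpy-8, dpy-17, hlh-6, nos-2, meg-1 and those of the closing section.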

Additional observations from a re-analysis of the deposited data

Results flagged for a closer look

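In 13 of 251 values examined, 1 of the 4 libraries lay so far from the others that its gap to the nearest, over the whole range, passed Dixon's limit for 4 samples. Chance flags about 1 in 20 such sets, which is close to the 13 of 251 found here. No single library accounted for the 13.

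Replicate 1 stood above the others for ctc-3, with 7647 TPM against 2653 to 3483 TPM, for the summed touch and sensory neuron genes, with 576 TPM against 471 to 483 TPM, and for col-19, with 0.347 TPM against 0 to 0.0302 TPM. It stood below them for the summed glia, excretory and coelomocyte genes, with 179 TPM against 240.2 to 251 TPM. The col-19 values rest on 11, 0, 0 and 1 reads in replicates 1 to 4.

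Replicate 4 stood above the others for snb-1, with 188 TPM against 177 TPM in each of them, and for WBGene00004677, with 734 TPM against 165 to 246 TPM. It stood below them for eef-1A.1, with 2459 TPM against 4525 to 4671 TPM, for pqn-59, with 119.8 TPM against 166 to 169 TPM, and for tdc-1, with 11.1 TPM against 14.2 to 14.8 TPM.

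Replicate 2 stood above the others for him-8, with 8.67 TPM against 7.46 to 7.64 TPM, for spe-4, with 1.41 TPM against 1.22 to 1.26 TPM, and for col-40, with 0.0334 TPM against 0 in each of them, which is 1 read. The spe-4 values rest on 68, 64, 61 and 69 reads in replicates 1 to 4, so counting error is large beside this gap. Those of him-8 rest on 324, 309, 292 and 340 reads. Replicate 3 stood above the others for dpy-10, with 349 TPM against 209 to 220 TPM.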

How the results depend on the processing

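No result rests on a test between groups, so each was judged by how far its value moved. No paired analysis was possible because the result comes from 1 group and no test. The number of detected genes stayed within 1.5 times of 12791 under every alternative, from 9334 at a minimum of 5 TPM to 15934 at 0.1 TPM, and was 12840 to 13053 without 1 replicate. The share of the 10, 100 and 1000 most abundant genes was 4.87, 24.3 and 59.9% when values were multiplied by exonic length, as a share of reads. With the authors' span-scaled values, an alternative chosen after seeing the data, the 100 and 1000 most abundant held 40.7 and 75.7%. Ribosomal proteins held 15.8% of reads, 24.4% without the 10 most abundant genes and 29.98 to 31.3% without 1 replicate. On the span-scaled values collagens held 5.19% and the mitochondrial genome 3.14%; without 1 replicate they held 3.81 to 4.1% and 1.67 to 2.36%. The 833 varying genes were 348 with a pseudocount of 10, 1320 at a mean of at least 1 TPM, 295 at a mean of at least 50 TPM, 1380 with every gene above 0, and 347 to 683 without 1 replicate, where fewer libraries enter the range. Under upper-quartile, median-of-ratios and quantile scaling they were 854, 867 and 821, and 709, 721 and 748 of these were among the 833. Of the 100 most variable genes, 72 were shared with a ranking by coefficient of variation and 78 with one after length correction. Of 295 family shares under alternatives 228 moved by less than 1 SD, as did 195 of 207 list sums and 215 of 253 list medians. The share of a family or list that varied at least 2-fold moved in 134 of 660 cases, among them 27 of 48 with a pseudocount of 10 and 66 of 191 without 1 replicate. Depth limits genes near 1 TPM most, and the sums of the sperm, yolk, embryo and male lists rest on few reads.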

Other observations

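The genes described next were chosen after their values were seen. A gene of a noncoding RNA with a known part in developmental timing, H36L18.2 (lep-5 in Ensembl, labelled protein-coding in the deposited table), reached 2030.1, 894, 1099.7 and 1094 TPM in replicates 1 to 4, above every one of the 14 timing genes listed. It was highest in replicate 1.

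Peptide genes leaned to replicate 4. Of the 108 neuropeptide and insulin-like genes at 10 TPM or more, 78 were highest in it, against 27.7% of all 8005 genes. Among them nlp-29, an antimicrobial peptide gene of the hypodermis, had 343, 509, 388 and 639 TPM, flp-14 138, 153, 123.5 and 216 TPM and flp-24 173, 173, 143 and 248 TPM. Of 47 saposin-like and antimicrobial genes 29 were highest in replicate 4, and fipr-3 had 113, 104.01, 54.7 and 168 TPM. These are short genes, and short genes as a whole had a median deviation of 0.15 in replicate 4. After length correction the median deviation of neuropeptide genes in replicate 4 was 0.14, against 0.30 before it, and that of the saposin-like and antimicrobial genes 0.16, against 0.34. Other sources of these shifts were not tested.

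Cytochrome P450 genes, which act in detoxification, tended to be low in replicate 1. Of 26 at 10 TPM or more 16 were lowest there, against 37.99% of all 8005 genes, with a median deviation of -0.29 before and -0.20 after length correction. The most abundant, cyp-29A2, had 57.7, 75, 84.6 and 108 TPM. All 5 that varied at least 2-fold, among them cyp-13A5 with 38.4, 70.6, 89.1 and 89.9 TPM, were lowest in replicate 1, and none varied without it. Glutathione transferases and antioxidant enzymes shared this only among the genes that varied. Their median deviation in replicate 1 was -0.01 before and 0.03 after length correction. Of 48 at 10 TPM or more 22 were lowest there, against 37.99% of all 8005 genes. In replicate 4 28 of the 48 were highest, against 27.7% of all genes. All 5 of the 48 that varied at least 2-fold were lowest in replicate 1. The varying share of 10.4% was that of all genes. Without replicate 1 it was 2.08%, against 4.31% of all genes. UDP-glycosyltransferases had a median deviation of 0.05 in replicate 1, with 11 of 36 genes lowest there and 1 of the 3 that varied.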
